A study of Mus musculus with 14 samples.

Results

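The loci described here are places in the mouse genome where transcripts end at exactly 2 poly(A) sites that lie 100 to 499 nt apart. Poly(A) sites on the same chromosome and strand were linked into a locus when neighbours lay within 2000 nt, and a locus of 2 sites was kept when each end held at least 60 reads over 6 libraries. The distal end is the one further along the transcript, and the proximal end is the one reached first. The rule kept 366 loci of 17807 in the table. Of 3736 loci with 2 ends, 1197 had this spacing, and the count minimum removed 185 for the distal end alone, 304 for the proximal end alone and 342 for both ends.

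The study counted 3′ ends in 3T3 cells, a mouse fibroblast line, with the 2P-Seq assay, which digests mRNA partly, primes reverse transcription on the poly(A) tail and reads the 3′ end. The 2 control libraries are taken here as untreated cells. Cells given actinomycin D (10 µg/ml) gave 4 libraries, taken at 1, 2, 4 and 8 h, and the fractions of a single sucrose gradient gave 6 more. Actinomycin D blocks transcription, so existing mRNAs decay without being replaced. The fraction columns are named 0, 1, 2.5, 4.5, 7.5 and 12, and are taken here as running from the lightest to the heaviest fraction, in which mRNAs carry more ribosomes. The libraries held 1663346 to 11575417 reads, and these loci took 5.81% to 8.48% of each. The labels do not say whether the controls are separate cultures, and a time or a fraction has only 1 library, so p-values measure no more than the scatter of these libraries about a straight line. A further 2 libraries, from 3P-Seq of 3T3 and embryonic stem cells, were not analysed here.

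Most mammalian genes can be cleaved and polyadenylated at more than 1 place. When both poly(A) sites lie in the same 3′ UTR, the coding sequence is the same and only the length of the untranslated tail differs. The stretch between the ends can hold microRNA sites, AU-rich elements and other signals that change how long an mRNA lasts and how well it is translated, and transcripts cut at the proximal end do not carry them. The deposited table gives positions in mm9 and no gene names, so the loci are named here by position, no gene or sequence is attached to them, and the cell type was not checked against marker genes.

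The 366 loci lay on 20 of the 21 chromosomes in the table, 189 on the plus and 177 on the minus strand, with 30 on chromosome 2. Their ends were a median of 234 nt apart, with quartiles of 161 and 333.5 nt and a range of 100 to 493 nt. Over the control and actinomycin D libraries, the distal ends held a median of 667 reads and the proximal ends a median of 345.5. The locus just inside the lower spacing limit, on chromosome 4, had ends 100 nt apart, and the nearest outside it, on chromosome 12, had ends 99 nt apart. At the upper limit the corresponding spacings were 493 nt on chromosome 7 and 506 nt on chromosome 9. At the count limit, a locus on chromosome 4 had 60 reads at its proximal end, and a locus on chromosome 2, outside the rule, had 59 at its distal end. A poly(A) site on the opposite strand lay between the ends in 17 of the 366 loci (4.64%), against 8 of 494 loci with 2 ends under 100 nt apart and 19 of 382 loci with 2 ends 500 to 2000 nt apart.

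The distal end was the more used end in most of these loci. With the controls summed, the distal share of a locus's reads had a median of 63.0%, with quartiles of 26.1% and 89.1% and a range of 0.268% to 99.7%. The distal end held over 50% of the reads in both controls in 209 loci, the proximal end did so in 137, and 20 loci lay on different sides of 50% in the controls or at 50%. Strong preference was common: 134 loci had a distal share of 80% or more and 81 had 20% or less, while 53 lay between 40% and 60%. In control 1 alone, 134 and 83 of the 366 passed these outer limits, and 139 and 83 did in control 2. Over all 3844 pairs of ends tested for decay in the table, 1002 and 645 passed in control 1, and 1058 and 629 in control 2.

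In most loci the preferred end was the same in every library. One end held over 50% in all 12 libraries in 258 loci, the distal end in 158 of them and the proximal end in 100. The controls differed by a median of 2.90 percentage points, and 7 loci differed by over 20 points. The median of log2((distal + 0.5)/(proximal + 0.5)) was 0.54 and 0.88 in the controls and 0.73, 0.66, 0.64 and 0.53 after 1, 2, 4 and 8 h. The value at 8 h was the lowest of these libraries but differed from control 1 by less than the controls differed from each other. In the gradient it was 0.83, 0.81, 0.83, 1.01, 1.02 and 0.96 from the lightest to the heaviest fraction.

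**Figure D1:**
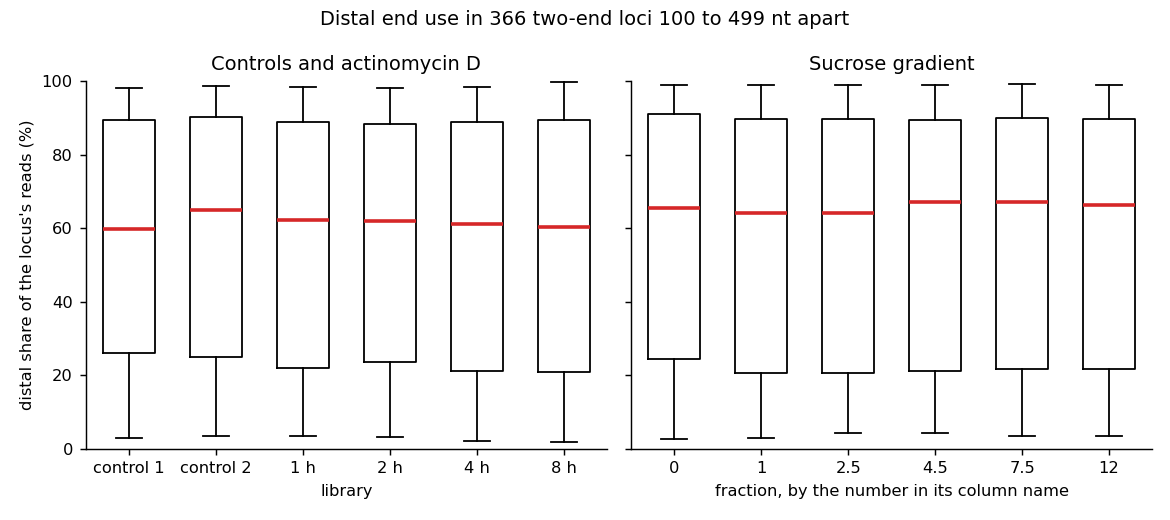
Distal share of the locus's reads (%) in 366 loci, in each control and actinomycin D library (left) and each gradient fraction (right). Boxes span the quartiles, red lines are medians and whiskers reach the 5th and 95th percentiles. Medians stay between 59.8% (control 1) and 67.1% (fraction 4.5), and every box spans most of the scale.

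End use carried over from unfractionated cells to the gradient. The distal share of the 6 fractions summed had a median of 66.3%, and its difference from the summed controls had a median size of 4.33 percentage points. The same end was dominant in both for 330 loci and the other end for 34. Across the 366 loci, Pearson's r of the shares was 0.950 and Spearman's rho 0.951. Loci are not independent replicates, and all of them share the same libraries. The locus on the plus strand at chr1:182531129 (proximal) and 182531383 (distal) was among those that differed. Its distal share was 65.5%, 55.8%, 59.9%, 54.5%, 67.0% and 58.9% from the lightest to the heaviest fraction, against 32.2% and 31.4% in the controls, so the ranges did not overlap. The experiments also differ in how RNA was prepared, and the part of that in the difference was not tested.

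**Figure D2:**
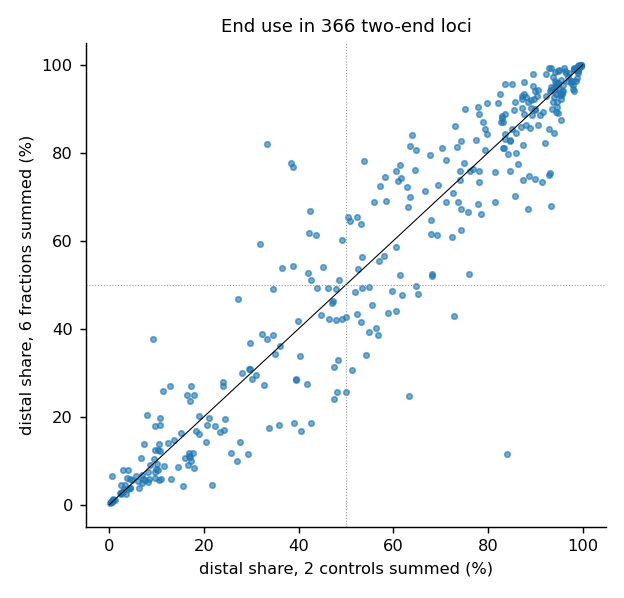
Distal share (%) of each of the 366 loci in the 6 gradient fractions summed (vertical axis) against the 2 controls summed (horizontal axis). Points lie near the line of equal shares (solid), and 330 loci fall on the same side of 50% (dotted lines) in both.

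End use differed between spacing bins, in no steady order with distance. The median distal share in the controls was 73.5% in the 143 loci with ends 100 to 199 nt apart, 57.1% in the 109 at 200 to 299 nt, 52.4% in the 63 at 300 to 399 nt and 64.7% in the 51 at 400 to 499 nt. Each bin spanned a wide range, with quartiles of 42.5% and 91.9% in the closest bin. The percentage of loci with a distal share over 50% was 59.6% here, 59.9% in the loci under 100 nt and 59.7% in those of 500 to 2000 nt.

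The most abundant of these loci used nearly 1 end alone. The 6 with the most reads held 37.0% of all reads of the 366 loci in the control and actinomycin D libraries, and 1 locus, chr3:90418229 and 90418335 on the plus strand with ends 106 nt apart, held 15%. There the distal end had 47130 and 38935 reads in the controls and 47694, 71138, 61747 and 54851 after 1, 2, 4 and 8 h. The proximal end had 258 and 77 reads in the controls and 89, 188, 441 and 830 after 1, 2, 4 and 8 h. The distal share thus stayed above 98% throughout, at 99.5% and 99.8% in the controls and 98.5% at 8 h, while the proximal count at 8 h exceeded that of either control. Its slope difference was −0.32 log2 per hour with an adjusted p of 0.072 in edgeR, so it was not called.

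The other 5 abundant loci were split between proximal and distal preference. The distal share was under 5% in every control and actinomycin D library at chr10:90579536 (90579320 distal), chr19:9052669 (9052953 distal) and chr9:120483548 (120483772 distal). At the chromosome 9 locus it was 2.42% and 2.73% in the controls and 2.96%, 3.01%, 2.32% and 4.00% after 1, 2, 4 and 8 h. Only the 8 h value stood clear of the others, and the slope difference of 0.06 log2 per hour was not called (adjusted p = 0.282, edgeR). The distal end instead held 98.8% or more of the reads in each of these libraries at chr8:74676714 (74677036 distal) and chr10:80645099 (80645241 distal), with slope differences of −0.02 and 0.05 log2 per hour (adjusted p = 0.756 and 0.621, edgeR).

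Whether the ends of a locus decay at different rates was asked by fitting the change of the distal relative to the proximal count per hour, within libraries, so that a library's depth cancels. Faster and slower loss stand here for a fall and a rise of this ratio, whether or not the distal count itself fell. The distal end was lost faster than the proximal end in 13 of the 366 loci and more slowly in 6, at an adjusted p under 0.05 in edgeR's quasi-likelihood test with Benjamini-Hochberg adjustment over all 3844 pairs of ends tested in the table. Over all pairs the same calls were made for 3.28% (faster) and 1.01% (slower), 4.29% in all. Among the loci here 5.19% were called, close to that background, so the calls do not set the loci apart. At an unadjusted p under 0.05, 52 loci had a faster and 34 a slower distal end. The median slope difference was −0.02 log2 per hour, with quartiles of −0.12 and 0.07, and was −0.02 over all pairs. With DESeq2, 258 of all 3844 pairs were called faster and 67 slower, against 23 and 8 of the 366 loci.

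These counts depend on single libraries, here and in the table as a whole. Over all 3844 pairs, the full fit called 126 faster and 39 slower, and each fit without a library called fewer in both directions. Leaving out control 1 gave 5 faster and 1 slower calls, and leaving out control 2 gave 1 and 0. Dropping the 1 h sample gave 3 and 0, the 2 h sample 10 and 4, and the 4 h sample 1 and 0. With the 8 h sample dropped, edgeR called 0 in each direction (33 and 23 at an unadjusted p under 0.05) and no other tool was run. All 19 called pairs kept their sign in each of these fits, 16 had an unadjusted p under 0.05 in every one, and 18 were also called by DESeq2, which called 23 faster and 8 slower.

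In the fastest relative losses the distal end all but disappeared. The pair with the largest slope difference, chr12:76732023 (proximal) and 76731582 (distal) on the minus strand, had distal shares of 19.6% and 45.8% in the controls and of 18.8%, 1.02%, 0.999% and 0% after 1, 2, 4 and 8 h. At 8 h it was 0 of 1562 reads, which allows a share of up to 0.192%. The controls were far apart, and the 1 h share lay just below the lower one. The slope difference was −1.66 ± 0.37 log2 per hour (SE; adjusted p = 0.0201, edgeR).

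A similar course was seen on the minus strand at chr19:5795999 and 5795690, with ends 309 nt apart. Its distal share was 72.8% and 90.3% in the controls and 37.7%, 10.5%, 1.18% and 1.12% after 1, 2, 4 and 8 h. The distal count was 24 at 8 h, against 437 and 951 in the controls. The proximal count was 2123 at 8 h, against 163 and 102. Distal reads were thus lower and proximal reads higher at 8 h than in both controls, and the dominant end changed by 1 h. The slope difference was −1.27 ± 0.30 log2 per hour (SE; adjusted p = 0.0417, edgeR), and it lost its call in each fit without a library, where the adjusted p ran from 0.0510 to 0.101. Without the 8 h library the slope difference was −2.30.

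A faster distal end was also called on the plus strand at chr2:84670211 (84670367 distal). The share was 96.1% and 94.0% in the controls and 94.9%, 94.8%, 87.5% and 67.9% after 1, 2, 4 and 8 h. The last value rests on 28 reads, with a 95% Wilson interval of 49.3% to 82.1%, still below both controls (slope difference −0.40 ± 0.07 log2 per hour, SE; adjusted p = 0.0329, edgeR). Such intervals hold the counting error of reads alone. Reads copied by PCR are not separate molecules, so the intervals can be too narrow. The bounds given for counts of 0 share this limit. Over the 31 loci named by rule, the half-width of this interval had a median of 2.64 percentage points, and it exceeded 10 points in 49 of 370 shares.

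The plus-strand pair at chrX:147524061 (147524226 distal) had 62.6% and 63.2% in the controls and 53.2%, 48.2%, 43.8% and 12.5% after 1, 2, 4 and 8 h. Its 8 h library held only 16 reads of the locus, and the interval ran from 3.50% to 36.0%, below both controls. Its slope difference was −0.38 ± 0.09 log2 per hour (SE; adjusted p = 0.0424, edgeR). At chr5:135657603 (135657720 distal), also on the plus strand, the shares were 82.5% and 84.4% in the controls and 87.1%, 65.8%, 60% and 43.5% after 1, 2, 4 and 8 h. The 1 h share was above both controls and the later ones below, with a slope difference of −0.37 ± 0.08 log2 per hour (SE; adjusted p = 0.0424, edgeR).

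A minority distal end was lost in the same way at chr3:130399082 (130398838 distal) on the minus strand. Its share was 22.8% and 22.0% in the controls and 16.1%, 14.9%, 12.5% and 3.52% after 1, 2, 4 and 8 h, lower in each treated library than in both controls. The slope difference was −0.34 ± 0.06 log2 per hour (SE; adjusted p = 0.0242, edgeR). In these 4 pairs the share at 8 h was below both controls by more than the controls differed.

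The pair that held up best had a smaller slope difference. At chr4:120212758 and 120212473 on the minus strand, 285 nt apart, the distal share stood at 90.2% and 89.6% in the controls and 87.3%, 81.4%, 76.2% and 59.5% after 1, 2, 4 and 8 h. Every treated library was below both controls, and each later one below the one before. The slope difference was −0.33 ± 0.03 log2 per hour (SE), and its adjusted p of 0.00691 was the lowest of the 19 called pairs. It was called in 5 of the 6 fits that each leave out a library, more often than any other pair here. It was picked out after its values were seen.

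Faster loss of the distal end was also called where that end was rare. The distal share of the proximal-ended locus at chr10:90579536 was 0.594% and 0.724% in the controls and 0.612%, 0.565%, 0.385% and 0.184% after 1, 2, 4 and 8 h, where it was 44 of 23919 reads at 8 h. At chr19:9052669 it was 0.567% and 0.610% in the controls and 0.403%, 0.324%, 0.346% and 0.168% after 1, 2, 4 and 8 h. In both, the share at 8 h was under 50% of that in either control while the dominant end hardly moved as a share. The slope differences were −0.23 ± 0.03 and −0.21 ± 0.04 log2 per hour (SE; adjusted p = 0.0103 and 0.0295, edgeR).

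**Figure D3:**
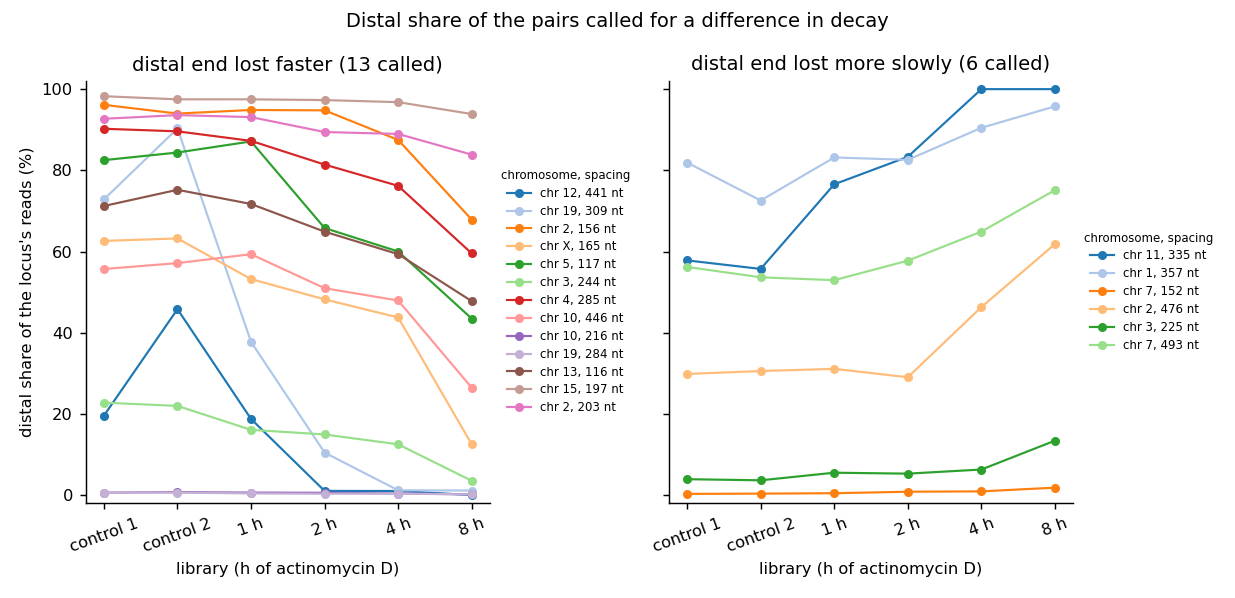
Distal share of the locus's reads (%) in the controls and after 1, 2, 4 and 8 h of actinomycin D, for the 13 pairs called with a faster loss of the distal end (left) and the 6 with a slower loss (right). Faster and slower are relative to the proximal end. Each line is 1 locus, named by chromosome and spacing. The chromosome 12 and chromosome 19 (309 nt) lines drop to 0% and 1.12% at 8 h, and the chromosome 11 line reaches 100% on 2 reads.

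The distal end gained on the proximal end in 6 called pairs. The largest slope difference was on the plus strand at chr11:62079612 and 62079947, at 1.03 ± 0.35 log2 per hour (SE; adjusted p = 0.0439, edgeR), but both ends nearly vanished there. The distal end had 185 and 161 reads in the controls and 49, 10, 2 and 2 after 1, 2, 4 and 8 h, and the proximal end had 135 and 128 in the controls and 15, 2, 0 and 0. From 4 h on, 2 reads were left of the locus, too few to place a share. DESeq2 gave it a slope difference of 0.54 and an adjusted p of 0.185, and no fit without a library called it.

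The other called pairs with a slower distal end kept more reads. At chr1:129840087 (129840444 distal, plus strand) the distal share stood at 81.9% and 72.6% in the controls and 83.2%, 82.6%, 90.5% and 95.8% after 1, 2, 4 and 8 h, with a slope difference of 0.34 ± 0.07 log2 per hour (SE; adjusted p = 0.0384, edgeR). Each treated library lay above both controls, although the first pair of treated values exceeded control 1 by little. At chr2:71112802 (71112326 distal, minus strand) the shares were 29.8% and 30.6% in the controls and 31.1%, 29.0%, 46.3% and 61.8% after 1, 2, 4 and 8 h. The distal end was there the minor end until 4 h and the major end at 8 h (slope difference 0.25 ± 0.05 log2 per hour, SE; adjusted p = 0.0324, edgeR).

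The pair with the widest spacing of all 366, chr7:112789863 and 112790356 on the plus strand, held 2739 distal and 1909 proximal reads over the 6 libraries. Its distal end had 489 and 471 reads in the controls and 477, 458, 394 and 450 after 1, 2, 4 and 8 h, and its proximal end 381 and 407 in the controls and 424, 335, 213 and 149. The distal share was therefore 75.1% at 8 h (95% Wilson interval 71.5% to 78.4%), against 56.2% and 53.6% in the controls. Its slope difference was 0.17 ± 0.03 log2 per hour (SE; adjusted p = 0.0268, edgeR).

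Rare distal ends gained share at the remaining pair of slower loci. At chr3:89810140 (89809915 distal, minus strand) the share was 3.91% and 3.64% in the controls and 5.51%, 5.28%, 6.29% and 13.4% after 1, 2, 4 and 8 h. At chr7:121408121 (121407969 distal, minus strand) it was 0.289% and 0.357% in the controls and 0.455%, 0.821%, 0.912% and 1.82% after 1, 2, 4 and 8 h, from 4 to 19 distal reads a library. All treated values were above both controls, with slope differences of 0.23 ± 0.06 and 0.29 ± 0.06 log2 per hour (SE; adjusted p = 0.0459 and 0.0285, edgeR).

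For a few loci the counts were deep enough to bound the difference tightly. At chr18:35097292 (35097070 distal, minus strand) the distal share stood at 2.65% and 2.78% in the controls and 2.44%, 2.94%, 2.56% and 2.43% after 1, 2, 4 and 8 h, and the slope difference was −0.02 log2 per hour with a 95% interval of −0.07 to 0.04. At chr19:15979967 (15979621 distal, minus strand) the share lay between 94.1% and 95.6% in the same libraries, and the slope difference was −0.03 (−0.09 to 0.03). At chr1:182531129 it lay between 31.1% and 35.6%, with a slope difference of 0.02 (−0.04 to 0.08). These 3 have the narrowest intervals of the 366. A slope difference of 0.125 log2 per hour amounts to a 2-fold change in the ratio of the ends over 8 h, and the interval lay wholly inside that size in 23 of the 366 loci (6.28%), against 13.2% of all pairs tested. In 26 of the 366 it lay wholly outside, against 206 of all 3844 pairs tested. In the others of the 366 the interval held both a 2-fold difference and smaller ones, so a 2-fold difference was not excluded there.

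**Figure D4:**
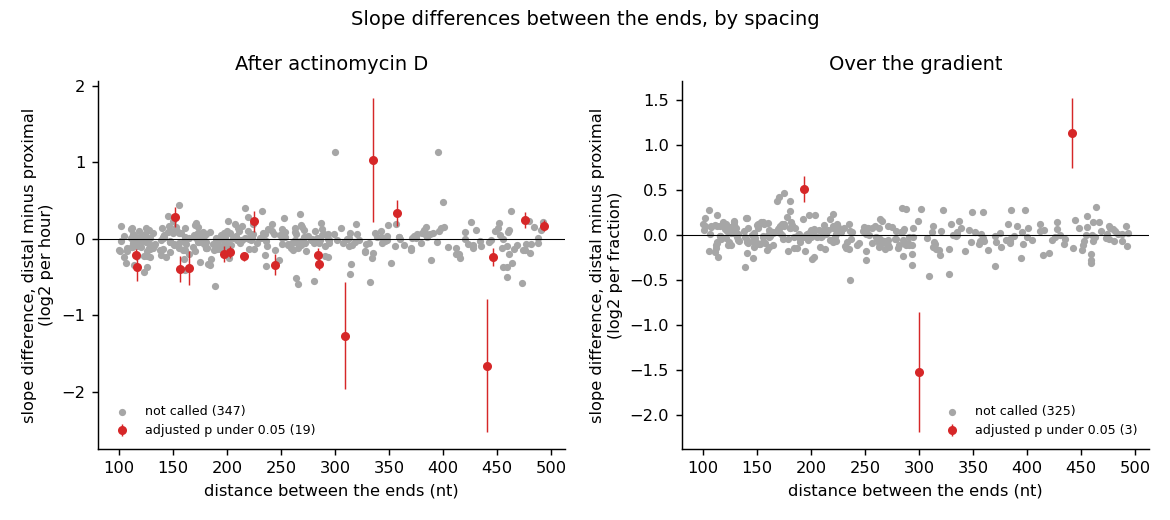
Slope difference between the ends (distal minus proximal) against their distance (nt), after actinomycin D (left, log2 per hour, 366 loci) and over the gradient (right, log2 per fraction, 328 loci). Red points are called at an adjusted p under 0.05, with 95% intervals, and grey points are not. Called loci occur across the whole spacing range, 19 on the left and 3 on the right.

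Called pairs were found at every spacing, 6 of 143 at 100 to 199 nt, 6 of 109 at 200 to 299 nt, 3 of 63 at 300 to 399 nt and 4 of 51 at 400 to 499 nt. The median size of the slope difference was 0.09, 0.08, 0.07 and 0.13 log2 per hour in these bins. Of loci with a distal share over 50% in the summed controls, 9 of 218 were called faster and 3 slower, and of the other 148, 4 and 3. Under the same fit, 14 of 494 loci with ends under 100 nt apart were called faster and 0 slower, and 20 and 4 of 382 with ends 500 to 2000 nt apart. The median size of the slope difference was 0.09 log2 per hour here, 0.06 in the closer and 0.11 in the wider loci, beside median SEs of 0.07, 0.06 and 0.08. Among the uncalled loci, slope differences above 1 log2 per hour stood at chr2:25048486 and chr3:38348577, both at 1.14, with adjusted p of 0.0675 and 0.0607 in edgeR. The chromosome 3 locus was picked out after its values were seen.

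The authors' deposited table gives a half-life per site, in a unit its headers do not state. Both ends had one in 331 of the loci, with a median of 3.41 for distal and 3.63 for proximal ends in that table. In the authors' deposited table the distal value was the shorter in 178 loci (53.8%) and the longer in 153, and it differed at least 2-fold in 66, being shorter in 42 and longer in 24. Over all pairs in the authors' deposited table, the distal value was the shorter in 57.1%, and 16.1% differed at least 2-fold, against 19.9% of these loci.

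Taken as whole loci, with the ends summed, many changed relative to the rest of the library after actinomycin D. In edgeR, 93 of the 366 fell and 132 rose at an adjusted p under 0.05, 61.5% together, against 55.4% of all 10734 loci tested, of which 31.7% fell and 23.7% rose. A locus rises on this scale when it falls less than the average mRNA, and also when it gains outright. In bulk RNA, fewer transcripts in each cell and fewer cells that carry them cannot be told apart. This split depends on scaling: with the authors' header factors instead of TMM factors, 194 fell and 12 rose. The header factors moved the median slope of all loci to −0.20, against −0.04 log2 per hour with TMM. Relative to that median, the median of the 366 loci was higher by 0.06 with TMM and by 0.07 with header factors. Among the 2-end loci under 100 nt apart 27.9% fell and 31.8% rose, and among those 500 to 2000 nt apart 24.9% fell and 29.3% rose, with TMM. The 61.5% and 55.4% are not matched for depth, as these loci needed the count minimum at each end and all loci only in sum. With a minimum of 300 reads per locus, edgeR called 2529 of all 7788 loci as falling and 2287 as rising. Of the 342 loci left here, 88 fell and 127 rose, 62.9% together, closer to the share of all loci than before.

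The loci that fell most were nearly gone by 4 h. At chr5:93705060 (93705249 distal, plus strand) the locus held 20.4 and 29.7 CPM (reads scaled to library totals) in the controls and 5.73, 2.39, 0.198 and 0 after 1, 2, 4 and 8 h. At chr3:89137661 (89137309 distal, minus strand) it held 17.8 and 13.2 in the controls and 5.07, 1.02, 0.198 and 0. Each treated library lay below both controls and each later one was lower. Their slopes were −1.56 ± 0.21 and −1.55 ± 0.25 log2 per hour (SE; adjusted p = 6.22e-05 and 9.32e-05, edgeR). The chromosome 11 pair described above came next, at −1.36 ± 0.31 in edgeR (adjusted p = 0.000931) and −0.79 in DESeq2 (adjusted p = 0.00476), on 2 reads at 4 and at 8 h. Slope differences between the ends were −0.61 (−1.77 to 0.55) and −0.31 (−1.33 to 0.71) log2 per hour in the first and the second of these loci, so equal and very unequal loss both lay within the intervals.

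The loci that rose most included both pairs whose distal ends vanished. The chromosome 12 locus held 62.1 and 33.3 CPM in the controls and 41.9, 117, 159 and 386 after 1, 2, 4 and 8 h (slope 0.51 ± 0.06 log2 per hour, SE; adjusted p = 0.000167, edgeR). The locus at chr19:5795999 held 103 and 164 in the controls and 33.4, 99.5, 270 and 531 (slope 0.42 ± 0.11; adjusted p = 0.0165, 0.0621 with header factors and 0.203 without the 8 h library, edgeR). In each, the gain at 4 and 8 h was carried by the proximal end. The third, chr2:174172035 (174172161 distal, plus strand), held 123 and 77.6 CPM in the controls and 54.3, 109, 207 and 580 after 1, 2, 4 and 8 h (slope 0.46 ± 0.06; adjusted p = 0.000162, edgeR). There both ends gained, and the distal share was 96.2% at 8 h, against 97.5% and 99% in the controls.

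A faster distal end was called in 8 of the 132 loci that rose, 4 of the 93 that fell and 1 of the 141 that did neither. Over all pairs it was called in 3.28%. The loci that rose were also better covered, with a median of 4184 reads, against 1061 in those that fell and 1229 in the rest. The part of depth in these counts was not tested.

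Along the gradient, few loci were called for a difference between their ends. Of the 366, 328 had 60 reads at each end over the 6 fractions. The distal end lay in heavier fractions in 2 and in lighter fractions in 1, at an adjusted p under 0.05 in edgeR over all 4283 pairs tested, of which 0.304% and 0.0467% were so called, 0.35% together. At an unadjusted p under 0.05 there were 24 heavier and 16 lighter, and DESeq2 called 6 and 1. Over all 4283 pairs DESeq2 called 42 heavier and 11 lighter. Left-out fractions gave 0 to 2 heavier and 0 to 1 lighter calls, with 0 of both without fraction 1, 2.5, 4.5 or 7.5 and 1 heavier without fraction 12. With the numbers in the column names in place of the ranks, edgeR called 0 in each direction (18 heavier and 14 lighter at an unadjusted p under 0.05). The median slope difference was −0.01 log2 per fraction, with quartiles of −0.08 and 0.08.

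A heavier distal end was called on the minus strand at chr14:106291358 and 106291165, with ends 193 nt apart. Its distal share was 64.0%, 63.7%, 71.3%, 82.3%, 85.0% and 90.0% from the lightest to the heaviest fraction, higher in each of the 4 heavier fractions than in both lighter ones. The slope difference was 0.51 ± 0.06 log2 per fraction (SE; adjusted p = 0.0268, edgeR). After actinomycin D its slope difference was −0.13 (−0.49 to 0.22) log2 per hour, on 30 reads or fewer in each treated library, against 211 and 288 in the controls.

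The chromosome 12 pair was the other, and the only locus of the 328 called for both decay and gradient. From the lightest to the heaviest fraction its distal share was 2.07%, 1.26%, 11.1%, 9.13%, 15.6% and 46.7%, with a slope difference of 1.13 ± 0.17 log2 per fraction (SE; adjusted p = 0.0300, edgeR). The proximal end had 425 and 629 reads in the lightest pair of fractions and 160 in the heaviest, while the distal end had 9, 8 and 140 there. These libraries differ widely in depth, with 1663346, 4173629 and 11575417 reads. In CPM the proximal end had 256, 151 and 13.8, and the distal end 5.41, 1.92 and 12.1. Across the 328 loci, the decay and gradient slope differences had a Pearson's r of −0.223 and a Spearman's rho of −0.031. Pearson's r gives weight to extreme loci such as this one, and their part in it was not tested. The libraries of the 2 experiments are different, but each locus's counts share its position and abundance.

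The pair called with a lighter distal end was chr2:25048486 (25048186 distal, minus strand), with ends 300 nt apart. Its distal share was 68.4%, 87.0%, 50%, 19.4%, 9.30% and 3.57% from the lightest to the heaviest fraction, and the slope difference was −1.52 ± 0.29 log2 per fraction (SE; adjusted p = 0.0461, edgeR). The counts were low, 19 to 54 reads of the locus in a fraction. This locus also differed between the controls, with distal shares of 29.0% and 77.4%, and had 87.5%, 88.2%, 95.3% and 100% after 1, 2, 4 and 8 h, the last on 50 reads, which allows a proximal share of up to 6.00%. The distal end thus prevailed in every treated library and in the lightest pair of fractions, and the proximal end in the 3 heaviest.

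Uncalled loci were added up to 3 in each direction, by the lowest p of that direction. At chr19:9052669 the rare distal end took 0.357%, 0.436%, 0.700%, 0.728%, 0.978% and 0.925% from the lightest to the heaviest fraction (slope difference 0.30 ± 0.05 log2 per fraction, SE; adjusted p = 0.0597, and 0.0481 to 0.250 with 1 fraction left out, called in 1 of 6 such fits, edgeR). At chr16:17925644 (17925316 distal, minus strand) the share was 94.4%, 86.2%, 87.8%, 85.0%, 79.7% and 73.3% (−0.44 ± 0.09, SE; adjusted p = 0.0805, edgeR). At chr8:34887434 (34887637 distal, plus strand) it was 42.4%, 35.0%, 35.7%, 28.6%, 26.1% and 23.3% (−0.24 ± 0.05, SE; adjusted p = 0.0861, edgeR). A heavier distal end was also not called at the abundant locus chr8:74676714, with 0.27 ± 0.05 (SE; adjusted p = 0.0740 in edgeR and 0.0271 in DESeq2) and shares of 98.2%, 98.6%, 98.9%, 99.2%, 99.3% and 99.3%. In each of the first 3 the highest and the lowest share stood at opposite sides of the gradient.

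**Figure D5:**
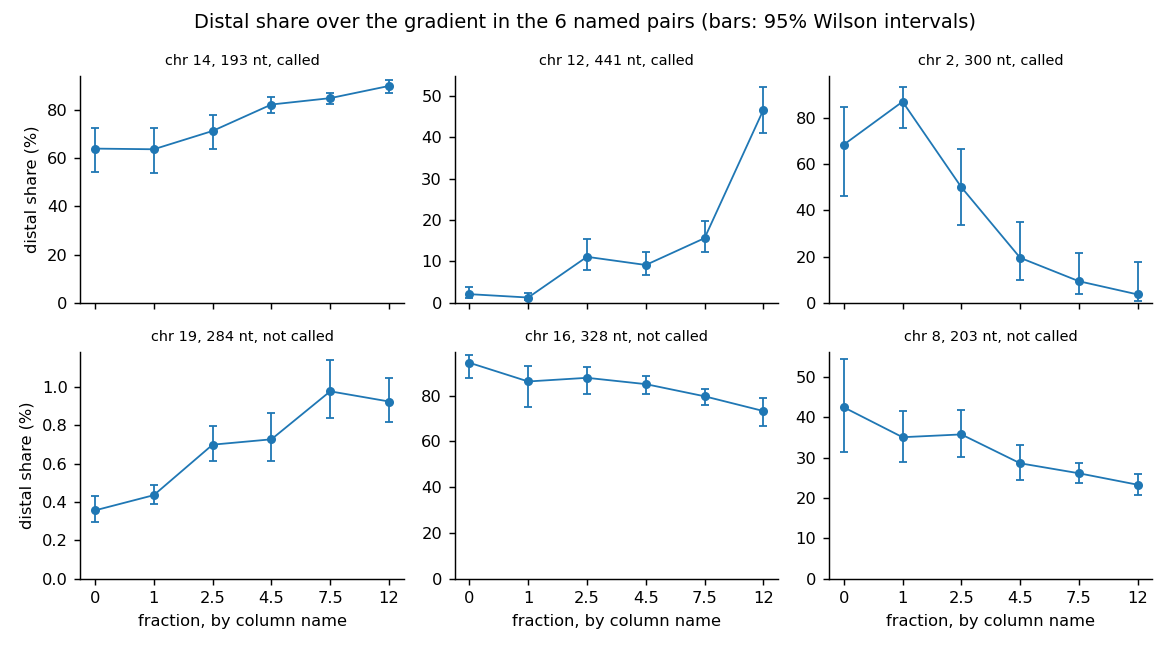
Distal share of the locus's reads (%) in the 6 gradient fractions, named as in the deposited table, for the 3 called loci (top) and 3 uncalled ones, those with the lowest p in their direction that fill each direction up to 3 (bottom). Bars are 95% Wilson intervals. The vertical scales differ: the chromosome 19 panel ends near 1%, and the chromosome 14 panel reaches 90.0%.

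A 2-fold change in the ratio of the ends from the lightest to the heaviest fraction corresponds to a slope difference of 0.2 log2 per fraction. The 95% interval lay wholly inside that size in 50 of the 328 loci (15.2%), against 19.1% of all pairs tested. It lay wholly outside in 4 of the 328, against 45 of all 4283 pairs tested. Under the same fit, 0 of 448 loci with ends under 100 nt apart were called in edgeR (27 at an unadjusted p under 0.05), and 5 of 340 with ends 500 to 2000 nt apart, all with a heavier distal end. The authors' deposited table gives ribosomes per mRNA for both ends of 344 of the 366 loci, with medians of 6.28 for distal and 6.28 for proximal ends. By the authors' deposited table, 176 loci had more ribosomes on the distal form and 168 had fewer, and the difference exceeded 1 ribosome in 21. Over all 3712 pairs with both values, the authors' deposited table has more on the distal form in 54.4% and a difference over 1 ribosome in 303.

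As whole loci, 19 of the 366 fell and 1 rose towards the heavy fractions in edgeR, 5.46% together, against 5.4% of all 11135 loci tested, of which 4.87% fell and 0.53% rose. Header factors turned this round, to 4 falling and 156 rising, as they moved the median slope of all loci to 0.50, against 0.05 log2 per fraction with TMM. Relative to that median, the median of the 366 was −0.01 with TMM and −0.002 with header factors. Without fraction 0 the counts were 31 and 16, without fraction 1 they were 7 and 1, without fraction 4.5 they were 17 and 2, without fraction 7.5 they were 4 and 0, and without fraction 12 they were 9 and 4.

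The largest falls were at loci concentrated in the light fractions. The locus at chr19:8800788 (8800931 distal, plus strand) held 3257 CPM in the lightest fraction and 4594, 2309, 439, 223 and 183 in the next ones (slope −1.20 ± 0.22 log2 per fraction, SE; adjusted p = 0.00228, edgeR). At chr6:113566687 (113566943 distal, plus strand) it held 560, 2261, 816, 167, 81.6 and 84.5 CPM (−1.15 ± 0.22; adjusted p = 0.00663, edgeR). Both peaked in fraction 1 in CPM, but with header factors the locus at chr19:8800788 peaked in fraction 2.5. Both fell with header factors as well, at −0.78 and −0.74. The chromosome 19 call was lost without fraction 7.5 (adjusted p = 0.0672, edgeR). The chromosome 6 call was lost without fraction 1, 7.5 or 12 (adjusted p = 0.110, 0.122 and 0.0766, edgeR). The locus at chr19:5795999, whose dominant end changed after actinomycin D, was the third, with 33.7, 76.7, 16, 4.78, 1.73 and 4.49 CPM (−1.07 ± 0.18; adjusted p = 0.000408, edgeR). Its distal share was 62.5% in the lightest fraction, on 56 reads, and 3.12% to 16.7% in the others, the last on 18 reads. The slope difference between its ends was −0.46 ± 0.52 log2 per fraction and was not called (SE; adjusted p = 0.774, edgeR). The 1 locus that rose, chr5:138092202 (138091710 distal, minus strand), held 3.61, 6.95, 10.3, 9.67, 31.5 and 50.7 CPM (0.62 ± 0.17; adjusted p = 0.0137, edgeR), and its call was lost without fraction 7.5 or 12 (adjusted p = 0.0615 and 0.0732).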

How the data were processed

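The deposited table holds raw read counts per poly(A) site for the 12 2P-Seq libraries. The authors annotated the 33590 sites from 3P-Seq, in mm9, per the file headers. Bowtie, whose version the sources used here do not give, did the alignment, per the submitters' processing notes. Half-lives and ribosomes per mRNA, deposited by the authors for most sites, served only as described values. No column of per-sample values was left out (0).

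Positions were not converted between builds. The main tests used edgeR 4.0.16 under R 4.3.3 (quasi-likelihood F test, robust), and DESeq2 1.42.0 was an alternative. TMM factors came from the summed counts of all loci with 60 counts or more. Each pair of ends (the 2 most abundant of a locus, 60 counts or more at each) had a term per library, an end term and an end by hours, or by fraction rank, slope. Controls were set at 0 h, an assumption, because the labels do not state it. Loci were tested on summed counts with a slope on hours or rank. P-values were adjusted over all pairs or loci of the table. Standard errors come from the quasi-likelihood information and were never taken below Poisson error. The fits were tested on simulated counts with straight-line slopes and the same scatter for every end, a simpler setting than these data. Scaling, count minimums, linking distance and left-out libraries were varied. The members and lists were chosen with earlier results of these data known.

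Loci were named by rule: up to 6 called pairs in each direction of each slope difference, by size (filled to 3 by lowest p where fewer were called), the 6 with the most counts, the 3 narrowest decay intervals, and up to 3 called loci with the largest fall and rise in each experiment. Column names do not give the fraction number in the labels, so light-to-heavy order is an assumption. Each fit has 6 libraries, so both the reads per end and the scatter between libraries bear on precision, and the deposited counts carry no molecular identifiers.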

Additional observations from a re-analysis of the deposited data

How the results depend on the processing

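No paired analysis was possible because the times and fractions have 1 library each and share no more than 1 replicate number with the controls. Decay calls with a faster distal end numbered 23 with DESeq2, 6 with a count minimum of 300 and 8 with none, and 0 to 10 with 1 library left out. Slower calls numbered 3 with a minimum of 300, 3 with none, and 0 to 4 with 1 library left out. Heavier distal ends numbered 6 with DESeq2, 1 with a minimum of 300, 4 with none, 4 with linking within 5000 nt, 0 on the numbers in the column names and 0 to 2 with 1 fraction left out. Lighter ones numbered 0 with a minimum of 300, with linking within 1000 nt and on the column numbers, and 0 to 1 with 1 fraction left out. Loci falling or rising after actinomycin D numbered 194 and 12 with header factors, and 72 to 86 and 102 to 135 with 1 library left out. Along the gradient, 4 fell and 156 rose with header factors, and 4 to 31 fell (7 without fraction 1, 9 without fraction 12) and 0 to 16 rose with 1 fraction left out. Rising loci there numbered 2 with RLE scaling, 8 with DESeq2, 6 with no minimum, 2 with linking within 1000 nt and 4 on the column numbers. Linking within 1000 nt gave 493 loci and within 5000 nt 289. The median log2 ratio of the ends under 5000 nt linking was 1.31 in control 2, 1.27 at 1 h, 0.95 at 4 h, and 1.14, 1.26, 1.29, 1.35, 1.26 and 1.29 from the lightest to the heaviest fraction. A minimum of 300 gave 0.38 at 2 h, 0.26 at 8 h and 0.70 in fraction 4.5, and linking within 1000 nt 0.29 at 8 h. Among uncalled slope differences, the sign turned without the 8 h library at chr9:120483548 (−0.029 to 0.079 over the left-out libraries), chr19:15979967 (−0.038 to 0.024) and chr1:182531129 (−0.013 to 0.025), and without control 1 at chr8:74676714 (−0.041 to 0.0013). The cause of these shifts was not tested. Loci with under 300 reads at an end, 237 of the 366, had a median slope difference of 0.12 log2 per hour in size, against 0.07 in the other 129.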
